A study of Drosophila melanogaster with 6 samples.

Results

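The genes described here encode the enzymes that break down phenylalanine, tyrosine and tryptophan, taken by their FlyBase symbols: Hn, Tat, Hpd, hgo, GstZ1, GstZ2, Faa, v and cn. All 9 were found in the count table of 15796 genes. RNA was measured in the fat body of late 3rd instar larvae of Drosophila melanogaster labelled as strain w1118, in 3 control libraries (R4-Gal4/+) and 3 libraries with overexpression of the adipokinetic hormone AKH (UAS-AKH/+; R4-Gal4/+). The driver R4-Gal4, which all 6 libraries carry, is active in the fat body, so the hormone was made in the organ that normally only receives it. The controls carry no UAS insertion, and neither the sex of the larvae nor the number pooled per library is stated in the labels.

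Phenylalanine is broken down through tyrosine. The hydroxylase Hn (Henna) makes tyrosine with the help of a pterin cofactor, the aminotransferase Tat removes the amino group, and Hpd and then hgo oxidise the ring to homogentisate and open it. The glutathione transferases GstZ1 and GstZ2 are of the zeta class, which includes maleylacetoacetate isomerase, and Faa, fumarylacetoacetase, cuts the last intermediate into fumarate and acetoacetate. Tryptophan takes another route, the kynurenine route, in which the dioxygenase v (vermilion) opens the ring and the monooxygenase cn (cinnabar) hydroxylates kynurenine on the way to the brown eye pigments. In the fly the first of these activities is classically assigned to the fat body and the eye, and the second to the Malpighian tubules and the eye. The hormone is the insect counterpart of glucagon, under which mammalian liver raises amino acid breakdown.

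The libraries held 29803513 to 33150911 counts, and the overexpressed gene checked the labels. Akh was at 1.82 to 2.44 CPM (read counts relative to the library total, adjusted with edgeR's TMM factors) in the controls and at 1635 to 2087 CPM with AKH overexpression. AkhR, the receptor gene, fell by 1.84 (SE 0.15) on the log2 scale. The fat body markers, chiefly the larval serum proteins and Fbp1, were present in every library, with a summed level of 340958 to 482127 CPM in controls and 371986 to 445867 CPM with AKH overexpression. Other tissues were present too. The 10 midgut markers summed to 1091 to 3323 CPM in controls and to 2.78 to 535 CPM with AKH overexpression, the 10 muscle markers to 99.4 to 126 and 70.2 to 83.0 CPM, the 7 haemocyte markers to 264 to 348 and 248 to 319 CPM, and the 6 salivary glue genes to 22862 to 27052 and 18843 to 29019 CPM. The 5 neuron markers summed to 309.98 to 429.6 and 339 to 395 CPM, the 10 cuticle markers to 66.4 to 101 and 15.4 to 169.5 CPM, and the 10 male germline markers to 6.09 to 36.7 and 4.87 to 29.9 CPM. In such bulk RNA, fewer cells of a type and less RNA per cell cannot be told apart. Since no label ties the replicates to separate pools of larvae, p-values measure only the differences among these libraries, some of which may be technical.

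The transcripts for the enzymes of one route were present at very different levels. Per length, in the RPKM deposited by the authors (read counts scaled by gene length and library total), the control mean was 234 ± 26.7 RPKM (SD, n = 3) for Hn and 0.0460 ± 0.0406 RPKM for hgo. Hn stood above 97.8% of the 14151 genes with any signal in the RPKM table, and hgo above 9.25%. Tat stood above 17.6% and Hpd above 33.1% of these genes.

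**Figure D1:**
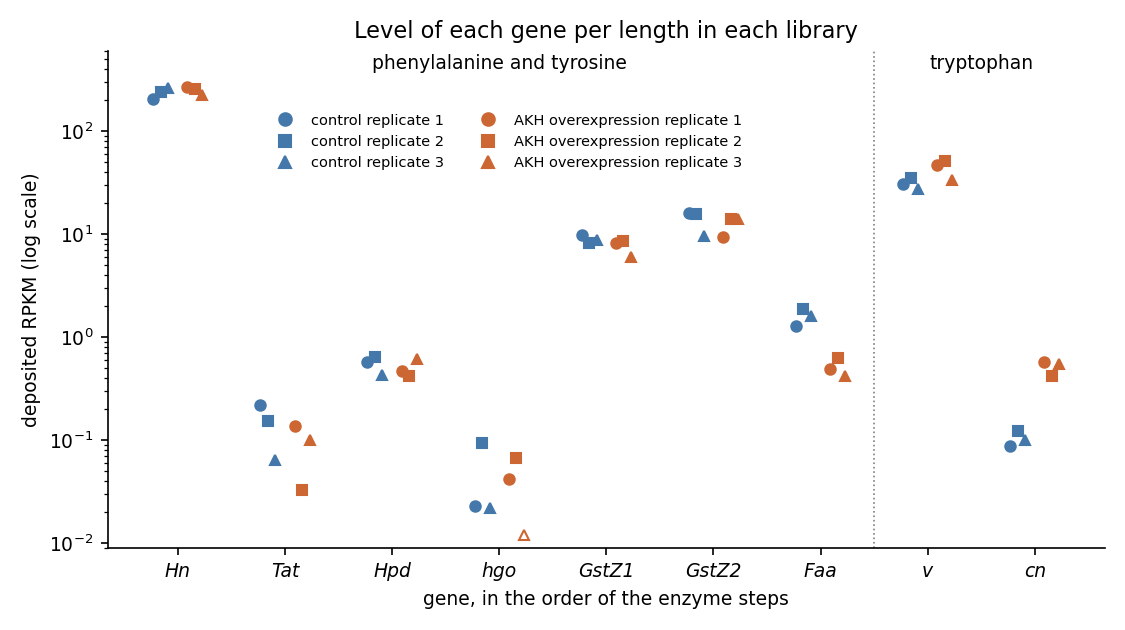
Deposited RPKM of each gene (log axis) in the 3 control and 3 AKH overexpression libraries, in the order of the enzyme steps, with the phenylalanine and tyrosine route left of the dotted line. The open triangle marks hgo at 0 in AKH replicate 3, drawn near the lower edge because 0 has no place on a log axis. Hn, GstZ1, GstZ2 and v lie above 5 RPKM in every library, and Tat, Hpd, hgo and cn lie below 1 RPKM.

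The order of levels in controls was Hn, v, GstZ2, GstZ1, Faa, Hpd, Tat, cn and hgo. Control means were 31.1 ± 3.74 RPKM for v, 13.7 ± 3.69 RPKM for GstZ2 and 8.92 ± 0.819 RPKM for GstZ1. They were 1.58 ± 0.309 RPKM for Faa, 0.547 ± 0.108 RPKM for Hpd, 0.146 ± 0.0780 RPKM for Tat and 0.103 ± 0.0178 RPKM for cn (all n = 3). Neighbours in this order had ranges that did not overlap, except that GstZ2 overlapped GstZ1, Tat overlapped cn, and cn overlapped hgo. With AKH overexpression cn moved up past Tat, Hpd and Faa in the order, to a mean of 0.516 ± 0.0824 RPKM. There its range overlapped that of Faa (0.509 ± 0.103 RPKM), and the ranges of Faa and Hpd overlapped. The top of the order, Hn above v above GstZ2 above GstZ1, was the same in both groups.

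Of the 9 genes, 7 had enough counts for the test between the groups, and hgo and Tat did not. In the deposited counts, 1 of the 9 genes rose (cn) and 1 fell (Faa), with edgeR's quasi-likelihood test and a Benjamini-Hochberg adjusted p under 0.05 over all 10705 tested genes. Over all tested genes 3.77% were called, 1.87% as higher and 1.91% as lower. The gene cn passed the expression filter only through the AKH libraries, all 3 of which were above its minimum of 0.328 CPM against 0 of the 3 controls, so that it had to differ in order to be tested at all. With no filter it was still called (adjusted p = 0.0386). The groups did not overlap in Faa, v and cn, where 24.3% of all tested genes had groups that did not overlap. The median log2 fold change of the tested genes among the 9 was -0.12, and that of all tested genes was 0.016.

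**Figure D2:**
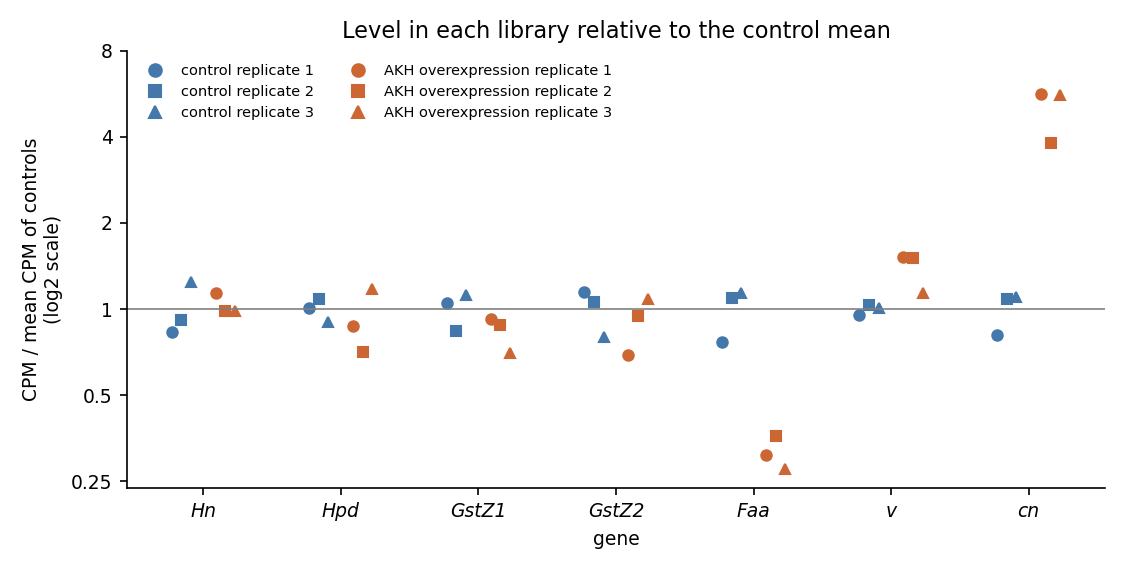
CPM of each tested gene in each library, divided by the mean of the 3 controls (log2 axis; the grey line is the control mean). In Faa, v and cn the AKH overexpression libraries lie apart from the controls, below them in Faa and above them in v and cn, while in the other genes the groups overlap.

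Hn was not called. It was at 319.8, 352 and 478 CPM in control replicates 1 to 3 and at 435, 377 and 378 CPM in AKH replicates 1 to 3. The groups overlapped, and the widest spread lay within the controls. The log2 fold change was 0.05 (SE 0.17, 95% interval -0.36 to 0.46, adjusted p = 0.92). With 9919 to 14311 counts per library, counting error is small beside this spread.

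Tat, which would take the amino group off tyrosine, had 13, 9 and 4 counts in control replicates 1 to 3 and 9, 2 and 6 counts in AKH replicates 1 to 3. No sample stood out from these few counts, and the groups overlapped. The ratio of AKH overexpression to control was 0.626 (95% counting interval 0.319 to 1.20), so a difference was not detectable at this depth. In a later annotation than the one used for the counts, 100% of the exon bases of Tat are shared with other genes, CG13404 on the opposite strand and CG46317 on the same strand. How the counting treated such bases is not given in the sources at hand. CG46317 has no row in the count table, so reads counted as Tat may include its reads. The level of Tat may thus be understated or overstated.

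Hpd, the dioxygenase that makes homogentisate, was at 0.774, 0.835 and 0.693 CPM in control replicates 1 to 3 and at 0.669, 0.544 and 0.904 CPM in AKH replicates 1 to 3. The highest and the lowest value were both in the AKH group. The log2 fold change was -0.12 (SE 0.35, 95% interval -0.97 to 0.72, adjusted p = 0.9). In the later annotation 27.3% of its exon bases are shared with other genes, CtIP and a long noncoding RNA, both on the opposite strand. The dioxygenase gene that acts next, hgo, had 1, 4 and 1 counts in the controls and 2, 3 and 0 counts with AKH overexpression. The ratio was 0.798 (counting interval 0.193 to 3.14). A count of 0 allows up to 3 counts, which is 0.0906 to 0.109 CPM per library, and the mean of hgo was below that in both groups.

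GstZ1 was at 8.61, 6.87 and 9.19 CPM in control replicates 1 to 3 and at 7.61, 7.25 and 5.77 CPM in AKH replicates 1 to 3. GstZ2 was at 22.6, 20.8 and 15.8 CPM in control replicates 1 to 3 and at 13.6, 18.7 and 21.4 CPM in AKH replicates 1 to 3. Both genes overlapped between the groups, and neither was called. The log2 fold changes were -0.26 (SE 0.16, 95% interval -0.64 to 0.12, adjusted p = 0.464) for GstZ1 and -0.14 (SE 0.20, 95% interval -0.64 to 0.35, adjusted p = 0.782) for GstZ2.

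The balance of these paralogues, which lie next to each other on the same strand in the later annotation, can be read within a library without any scaling. GstZ1 took 27.6%, 24.8% and 36.8% of their joint counts in control replicates 1 to 3 and 35.9%, 27.9% and 21.3% in AKH replicates 1 to 3. The share was highest in control replicate 3 and AKH replicate 1 and differed between libraries of the same genotype by more than counting error, since its 95% Wilson interval was 33.3% to 40.5% in control replicate 3 and 22.1% to 27.7% in control replicate 2. Between the groups it was 29.7% ± 6.31 and 28.4% ± 7.32 (SD, n = 3, exact two-sided permutation p = 0.8, where 0.1 is the smallest that 3 against 3 libraries allow). The sequence identity of the paralogues was not computed, and reads that match both could have been split or dropped by the counting.

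Faa, the last enzyme of the tyrosine route, fell. It was at 1.74, 2.47 and 2.59 CPM in control replicates 1 to 3 and at 0.7, 0.816 and 0.626 CPM in AKH replicates 1 to 3. Every AKH library was below every control, and the AKH libraries lay closer together than the controls. The means were 2.27 ± 0.460 and 0.714 ± 0.0957 CPM (SD, n = 3), a log2 fold change of -1.66 (SE 0.28, 95% interval -2.33 to -0.995, adjusted p = 0.0288). In counts, 205 reads in the controls stood against 68 with AKH overexpression, a ratio of 0.318 (counting interval 0.238 to 0.420). The call was lost in each of the 6 fits without 1 library (adjusted p from 0.0572 to 0.118, log2 fold change from -1.83 to -1.56), under limma-voom (adjusted p = 0.0664) and with the replicate number as a block (adjusted p = 0.0616). The summed midgut and muscle markers were also lower in every AKH library than in every control, and their part in the lower levels of Faa, and of t below, was not tested.

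On the tryptophan route, v was higher in every AKH library than in every control but did not pass the test. It was at 38.8, 42.1 and 41.0 CPM in control replicates 1 to 3 and at 62.0, 61.3 and 46.4 CPM in AKH replicates 1 to 3. AKH replicate 3 lay closer to the controls than to the other AKH libraries. The means were 40.6 ± 1.68 and 56.5 ± 8.80 CPM (SD, n = 3), with a log2 fold change of 0.48 (SE 0.12, 95% interval 0.18 to 0.78, adjusted p = 0.107). DESeq2 called it (adjusted p = 0.0167, where 8.48% of its genes were called), and so did edgeR without AKH replicate 3 (log2 fold change 0.60, adjusted p = 0.0344). It was not called in the 5 other edgeR fits without 1 library (adjusted p up to 0.328). Nor was it called under limma-voom (adjusted p = 0.114), or by edgeR with library size scaling (0.214) or the replicate number as a block (0.125).

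The gene cn rose from a very low level. It was at 0.161, 0.217 and 0.219 CPM in control replicates 1 to 3 and at 1.13, 0.755 and 1.11 CPM in AKH replicates 1 to 3. Every AKH library was above every control, and AKH replicate 2 was the lowest of its group. The means were 0.199 ± 0.0326 and 0.998 ± 0.210 CPM (SD, n = 3), with a log2 fold change of 2.30 (SE 0.40, 95% interval 1.33 to 3.27, adjusted p = 0.0341). It rests on few reads, 18 in the controls and 94 in the AKH libraries, a ratio of 5.003 (counting interval 3.00 to 8.81). The call was lost in each of the 6 fits without 1 library (adjusted p from 0.0720 to 0.162, log2 fold change from 2.17 to 2.47), under limma-voom (adjusted p = 0.106) and with the replicate number as a block (adjusted p = 0.0764). In the later annotation 68.7% of its exon bases are shared with an antisense RNA, asRNA:CR45108, which has no row in the count table. Whether the counting used strand is not known, and without strand the reads of cn and of this RNA cannot be told apart.

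**Figure D3:**
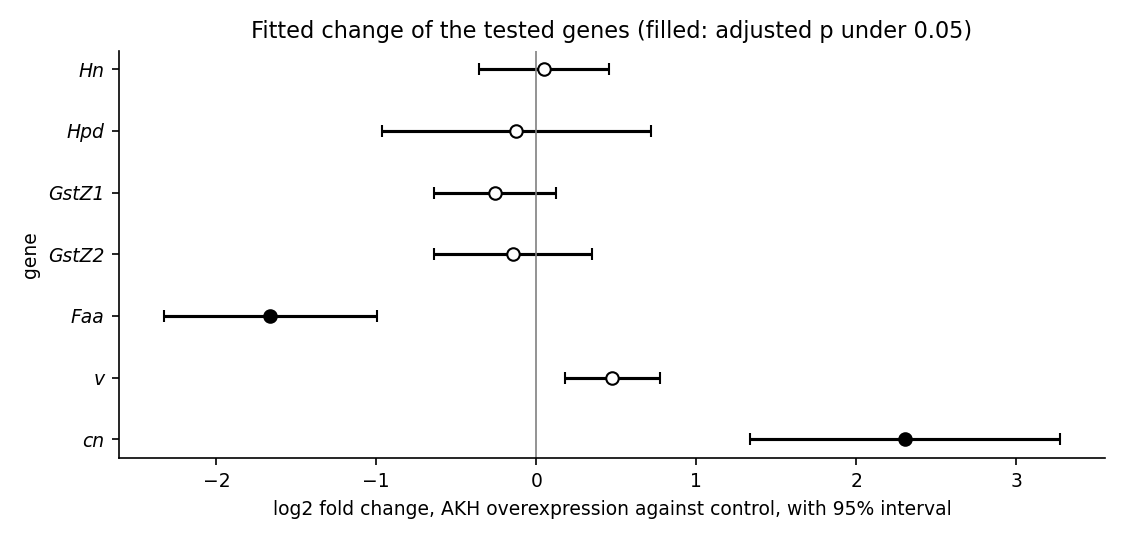
Log2 fold change of each tested gene, AKH overexpression against control, from edgeR, with its 95% interval (bars). Filled points are the genes with an adjusted p under 0.05, Faa at -1.66 and cn at 2.30, and the intervals of the others cross 0 except that of v, which runs from 0.18 to 0.78.

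The ratio of cn to v counts largely restates the change of cn, which had 5, 7 and 6 counts in control replicates 1 to 3. For every 1000 counts of v there were 4.16, 5.15 and 5.33 counts of cn in control replicates 1 to 3 and 18.2, 12.3 and 24.0 counts in AKH replicates 1 to 3. This ratio does not depend on the scaling between libraries, and the groups did not overlap. Its means were 4.88 ± 0.633 and 18.2 ± 5.83 (SD, n = 3). It was computed after the values of both genes had been seen and is given without a test. The transcript of v thus remained far more abundant than that of cn in both groups.

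Since the activity of cn is classically assigned to the Malpighian tubules as well as the eye, markers of the tubules were set beside it. All 8 tubule markers were detected in every library. Their summed level was 68.8, 82.0 and 269 CPM in control replicates 1 to 3 and 134.5, 196 and 143 CPM in AKH replicates 1 to 3. The AKH libraries were above control replicates 1 and 2 and below control replicate 3, where Uro, urate oxidase, alone was at 166 CPM. The chloride channel gene pHCl-2 was at 0.838, 2.13 and 4.23 CPM in control replicates 1 to 3 and at 4.66, 6.89 and 4.52 CPM in AKH replicates 1 to 3, with no overlap. Oatp58Db was at 3.35, 3.00 and 9.30 CPM in control replicates 1 to 3 and at 0.243, 1.48 and 0.695 CPM in AKH replicates 1 to 3. It also had no overlap, but was lower with AKH overexpression. Groups did not overlap in 24.3% of all tested genes. The median log2 fold change of the 8 markers was 0.35, and that of all tested genes was 0.016. Of the 8, 0 were called by edgeR, where 2 had an unadjusted p under 0.05 (Oatp58Db, lower, and ct, higher). Such a p was held by 1928 of all 10705 tested genes in that fit. For pHCl-2 the unadjusted edgeR p was 0.073. DESeq2 called 1 of the 8 (Oatp58Db), where 8.48% of its genes were called. By limma-voom 0 were called and 1 had an unadjusted p under 0.05, as had 1913 of the 10705 genes. The part of tubule RNA in the level of cn was not tested.

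**Figure D4:**
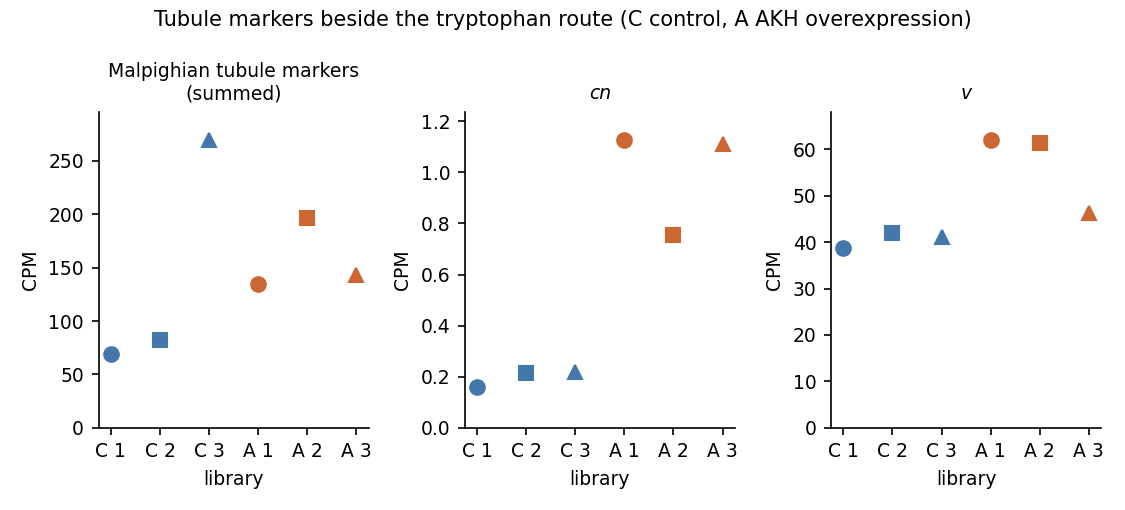
Summed CPM of 8 Malpighian tubule markers, and CPM of cn and of v, in each library (C control, A AKH overexpression, with replicate number; all axes start at 0). The AKH libraries lie at 134.5 to 196 CPM for the tubule markers, between control replicates 1 and 2 (68.8 and 82.0 CPM) and control replicate 3 (269 CPM), and at 0.755 to 1.13 CPM for cn, above the controls. The part of tubule RNA in the level of cn was not tested.

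The other enzymes and partners of these routes mostly did not pass the test. Kyat, a kynurenine aminotransferase, which turns kynurenine into kynurenic acid, was at 49.7 ± 4.32 CPM in the controls and at 41.8 ± 3.48 CPM in the AKH group (SD, n = 3, log2 fold change -0.25, SE 0.10, adjusted p = 0.245). Its groups did not overlap (46.1 to 54.5 CPM in controls, 39.3 to 45.8 CPM with AKH overexpression), as in 24.3% of all tested genes. The peroxidase gene cd had too few counts for the test, and the formamidase gene KFase, which acts between v and cn, was not analysed here. Of 8 tested genes for the synthesis and recycling of pteridines, which include the cofactor of Hn, 1 rose, 0 fell and 7 were not called. The share over all tested genes was 1.87% higher and 1.91% lower. The gene that rose was ry, xanthine dehydrogenase, with a log2 fold change of 0.48 (SE 0.09, adjusted p = 0.0383), from 46.3 ± 4.35 to 64.7 ± 2.46 CPM. Its call held only without control replicate 3 and was lost in the 5 other fits that left out 1 library (adjusted p up to 0.195). With all libraries it was also lost under RLE scaling (adjusted p = 0.0505), TMM without the 20 most abundant genes (0.0565), no filter (0.0674), limma on log2(RPKM + 1) (0.0530) or log2(RPKM + 0.1) (0.0502) and the replicate block (0.0780). Pu, GTP cyclohydrolase, which starts the synthesis of the cofactor, was named after its values were seen because it varied within groups. It was at 264, 327 and 78.2 CPM in control replicates 1 to 3 and at 326, 218 and 82.9 CPM in AKH replicates 1 to 3, low in replicate 3 of both groups.

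Tyrosine and tryptophan are also used for amines, cuticle and melanin. Of 14 tested genes of these uses, 0 rose, 1 fell and 13 were not called, where 3.77% of all tested genes were called. The gene that fell was t (tan), a hydrolase that frees dopamine from its beta-alanine conjugate. It was at 8.16, 7.18 and 10.8 CPM in control replicates 1 to 3 and at 4.2, 4.53 and 4.83 CPM in AKH replicates 1 to 3. Its groups did not overlap, as in 24.3% of all tested genes. The log2 fold change was -0.95 (SE 0.17, adjusted p = 0.0361), and the call was lost in 4 of the 6 fits without 1 library, those without control replicate 1 or AKH replicate 1, 2 or 3 (adjusted p up to 0.157). It was also lost with no filter (adjusted p = 0.0504) and under limma-voom (0.0522). PPO2, a prophenoloxidase of crystal cells, a blood cell type, was at 106 ± 12.5 CPM in the controls and at 105 ± 11.2 CPM in the AKH group. Of the 14, 3 had an unadjusted edgeR p under 0.05 (t, ple and Ddc, all lower), as had 1928 of all 10705 tested genes. Neither ple (log2 fold change -3.31, SE 1.05, adjusted p = 0.169) nor Ddc (-0.94, SE 0.35, adjusted p = 0.236) was called. The median log2 fold change of the 14 was 0.057. Of the 4 transporter genes that carry pigment precursors such as kynurenines in the eye, w was called and the other 3 were not. It rose by 1.01 (SE 0.10, adjusted p = 0.0042) on the log2 scale, where 1.87% of all tested genes were called as higher. A short form of w is the usual marker on fly transgenes, so that its level is tied to the genotype and cannot be told apart from any change of the endogenous gene.

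The libraries in which Hn and v were high or low were shared by other genes. Over the 6 libraries, log2 CPM of Hn followed most closely that of sPLA2 (Pearson r = 0.996), ari-1 (r = 0.982) and CaMKI (r = 0.981), among 6834 tested genes of at least 5 CPM on average. For v the closest genes were CG12091 (r = 0.988), the cytochrome P450 gene Cyp28d1 (r = 0.982) and FBgn0004462 (r = 0.980). With only 6 points that share depth and scaling, 47 of the 6834 genes exceeded r = 0.9 for Hn and 57 for v. How many of 6834 unrelated genes would do so was not computed, so no link between the genes is read from these counts. The values describe these libraries only. Cyp28d1 was at 53.7, 53.0 and 56.8 CPM in control replicates 1 to 3 and at 95.9, 105 and 63.4 CPM in AKH replicates 1 to 3, lowest of the AKH group in replicate 3, as v was.

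**Figure D5:**
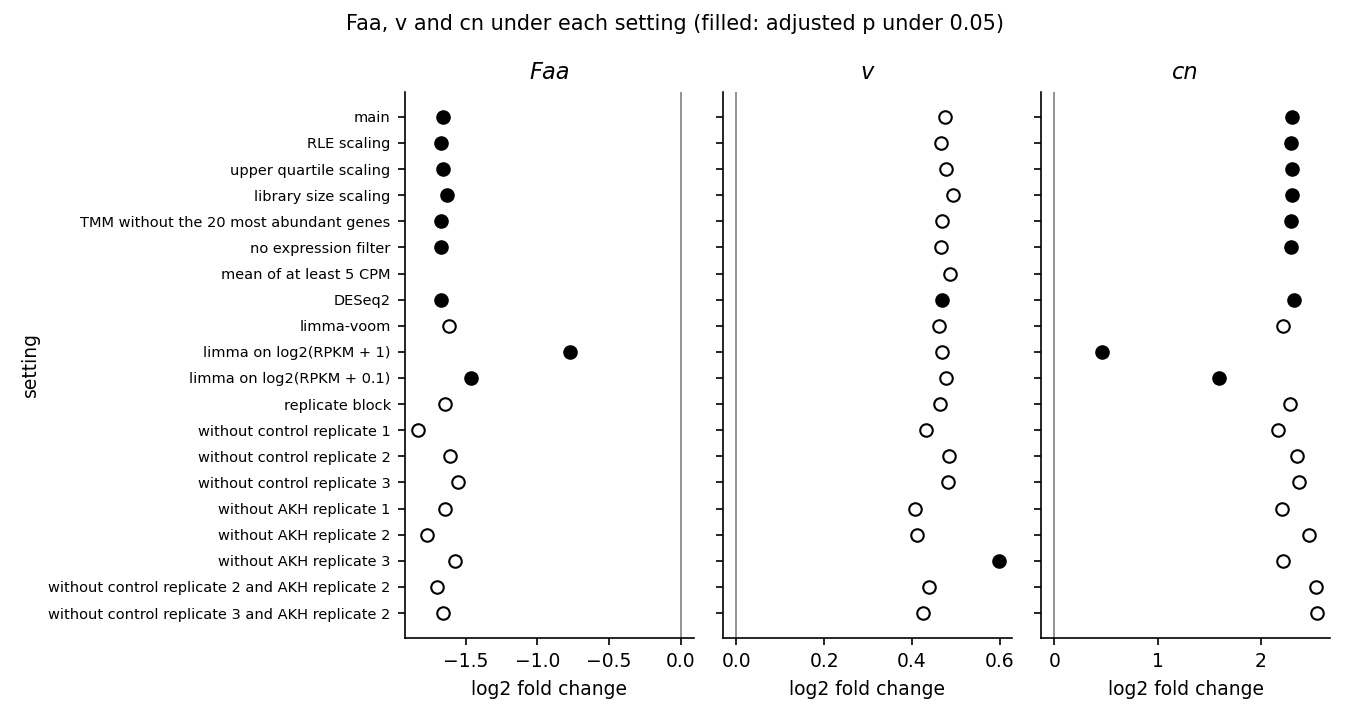
Log2 fold change of Faa, v and cn under each setting (rows), filled where the adjusted p was under 0.05. Faa was lower and v and cn were higher under every setting shown, and the points of Faa and cn are open in all 6 fits without 1 library, in both fits without a pair of libraries, under limma-voom and with the replicate block. On log2(RPKM + 1), a scale that understates changes of low genes, Faa was at -0.77 and cn at 0.46, and neither was tested with a minimum mean of 5 CPM.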

How the data were processed

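Libraries were prepared from Trizol-extracted RNA with Illumina's TruSeq RNA kit, per the labels' protocols. The authors deposited raw read counts per gene and RPKM, which are the counts divided by library total and 1 length per gene. The submitters' processing notes name HTSeq 0.5.4p3, TopHat2 2.0.9, Bowtie2 2.0.6, DESeq 1.10.1 and the build BDGP5, but give no annotation release, strand setting or treatment of shared reads. The gene annotation used here is of a later build, so no coordinates are printed and it served only for symbols, neighbours and overlaps. No sequence was at hand.

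The test was that of edgeR 4.0.16 under R 4.3.3 on the counts (default expression filter, TMM, quasi-likelihood F test, no covariate, all 6 libraries), with an adjusted p under 0.05 over 10705 genes. The 115 rows with identifiers outside FlyBase stayed in the fit. Intervals of log2 fold changes use the SE and the fit's degrees of freedom. Counting intervals are exact binomial intervals of summed counts and, like the limit of 3 counts, cover counting error only. CPM were computed with TMM scaling, and log2 CPM with a prior count of 2. Within groups, libraries differed far beyond sampling noise (chi-square per degree of freedom 36.4 to 87.8). The fit was also run on simulated counts that varied less between libraries than these data, and no result here rests on that run.

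The genes, lists and markers were chosen with earlier results of these data known. The count table held 121 of the 127 listed names, and the list for the fate of fumarate and acetoacetate is not reported here. The text names all 9 genes, Akh and AkhR, the called genes of each list or, where none was called, its most abundant gene, and the 3 genes most alike Hn and v. Other named genes were chosen after their values were seen, among them Pu, KFase, cd, PPO2, ple, Ddc, Uro, pHCl-2, Oatp58Db and ct. Alternatives were other scalings, filters, thresholds and tools (DESeq2 1.42.0, limma 3.58.1), log2(RPKM + 1) and log2(RPKM + 0.1), a replicate block and leaving out libraries. Figures were drawn with matplotlib 3.10.9.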

Additional observations from a re-analysis of the deposited data

How the results depend on the processing

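The count of 2 called genes among the 9 was also 2 under RLE, upper quartile and library size scaling, TMM without the 20 most abundant genes, no filter, a threshold of 0.1 and limma on log2(RPKM + 1) or log2(RPKM + 0.1), and 3 with DESeq2. It was 0 with limma-voom and with the replicate block, where 3 had an unadjusted p under 0.05 in either fit, 0 with a minimum mean of 5 CPM, which leaves Faa and cn untested (1 at an unadjusted p under 0.05), and 0 to 1 without 1 library, where 3 to 4 had an unadjusted p under 0.05. Fits without a pair of libraries were chosen after seeing the data and gave 0 called genes among the 9 by edgeR. 1 pair was control replicate 2 and AKH replicate 2, which held the most midgut and male germline RNA of their groups. Without this pair 3 had an unadjusted p under 0.05, and without control replicate 3 and AKH replicate 2 there were 2. Over all genes such a p was held by 1928 of 10705 in the main fit. With limma-voom it was held by 1913 of 10705 and with the replicate block by 2051 of 10705. It was held by 1594 of 6855 with a minimum mean of 5 CPM. Without 1 library it was held by 1373 to 2073 genes, and without the 2 pairs by 1559 and 1986. Over all genes the count of 404 called became 721 at a threshold of 0.1 and 989 with DESeq2. Under the other scalings, filters and tools it ranged from 348 (no filter) to 583 (limma on log2(RPKM + 0.1)), with 373 under limma-voom. It was 227 without control replicate 2 and AKH replicate 2, and 144 to 479 without 1 library. There it was 144 without AKH replicate 1, 182 without AKH replicate 3, 189 without control replicate 1 and 261 without AKH replicate 2. The signs of small uncalled differences turned in some fits. Without 1 library the log2 fold change ranged from -0.079 to 0.24 for Hn, negative without control replicate 1 or 2 or AKH replicate 1, from -0.29 to 0.022 for GstZ2, positive without AKH replicate 1, and from -0.34 to 0.031 for Hpd, positive without AKH replicate 2. Without both control replicate 2 and AKH replicate 2, Hpd was at 0.094. The GstZ1 share, AKH overexpression minus control, was -1.38 percentage points, and -5.14 to 2.17 without 1 library, turning positive without control replicate 3 or AKH replicate 3. The cause of these changes was not tested. Correlations of deviations were -0.37, 0.60 and 0.50 for libraries of the same replicate number, 1 to 3, and not every library was closest to its own number. Deviations from means of 3 libraries depend on each other, so these values cannot settle whether the numbers pair the libraries. The replicate block, with 430 genes called over all, is therefore given as an alternative. Depth limits hgo, Tat, Hpd, cn and in part Faa, and the spread between libraries is the larger limit for Hn.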
